A study of Mus musculus with 8 samples.

Results

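Mouse chromosome 7 was examined in Hi-C maps, which count how often each pair of genomic bins is found in contact in the nucleus. Its members are the 306 bins of 500 kb, numbered 1998 to 2303, out of 5322 in the maps, and they were taken by position in the mm9 assembly with no use of measured values. The cells were mouse embryonic stem cells (mESCs), a bulk culture of pluripotent cells, nucleofected with 1 of 2 antisense morpholino oligos (AMOs), which are stable synthetic strands that pair with RNA. The L1 AMO group received an AMO against the RNA of the LINE-1 (L1) retrotransposon, and the SCR AMO group received a scrambled control, each at 5 nmol in 100 µl. Both groups went through the same nucleofection, a sort of the nucleofected cells at 12 h and harvest at 36 h, and each has 2 samples. The comparison asks how contacts along the chromosome differ when L1 RNA is targeted. Values are given for replicate 1 and then replicate 2 of a group throughout.

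Both oligos are 25 bases long and are shown because they are all that distinguishes the groups by design. The capitals mark the longest run of bases that they share, which is 4 bases.
L1 AMO: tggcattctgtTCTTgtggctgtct
SCR AMO: ccTCTTacctcagttacaatttata
The L1 AMO holds 12 G or C bases and the SCR AMO holds 8. Sites matching either oligo were not located on chromosome 7, since no mm9 sequence was used here.

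The SCR AMO maps held 112381720 and 22252054 contacts. Those of L1 AMO, each the sum of 2 matrices, held 58030519 and 46263849. Within chromosome 7 there were 4725537 and 933666 contacts in SCR AMO and 2539942 and 2032954 in L1 AMO. SCR AMO replicate 1 was therefore the deepest map and SCR AMO replicate 2 the shallowest. Pairs of chromosome 7 bins more than 10 Mb apart held a mean of 29.3 and 5.33 counts in SCR AMO and 13.4 and 10.3 in L1 AMO, so single bin pairs are poorly measured and sums over blocks were used. The totals of both SCR AMO matrices depart from those tabulated by the study, one above and one below, while both L1 AMO totals are close to theirs. An effect of the AMO and any unequal handling of the maps cannot be told apart in the results given here. The share of contacts that join 2 chromosomes was 22.3% and 22.8% in SCR AMO and 15.8% and 14.2% in L1 AMO, and its part in the results was not tested.

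Along a chromosome, chromatin falls into stretches of an A kind, rich in active genes and in SINE B1 repeats, and a B kind, poor in active genes and rich in L1. Stretches of a kind contact each other over long distances, which gives a Hi-C map its plaid look. Chromosome 7 is known for large families of neighbouring genes and for clusters of imprinted genes, which are expressed from only the maternal or the paternal copy. In the RefSeq genes of the GRCm38.p6 assembly it carries 2030 protein-coding genes, of which 29.9% belong to 10 listed families. They include 237 olfactory receptor genes, which encode odour receptors, 126 Vmn1r and 52 Vmn2r genes, which encode pheromone receptors, and 93 genes named as zinc finger proteins. All 28 Ceacam and Psg genes in that table and 26 of 27 kallikrein genes, which encode secreted proteases, are on chromosome 7. The longest olfactory receptor run, 73 genes with at most 2 others between neighbours, ends at Olfr67, next to the beta globin gene Hbb-bt. In gene order the imprinted genes Zim1, Peg3 and Usp29 come first, Ube3a, Snrpn, Ndn, Magel2 and Mkrn3 lie before that olfactory run, and H19, Igf2, Ascl2, Kcnq1, Cdkn1c and Phlda2 come last. The maps use mm9, whose gene positions were not used here, so no family was assigned to a block and none of the results below is about a gene family.

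Of the 306 bins, 272 were kept (88.9%), and 34 bins in 7 stretches were covered at less than 0.1 of the chromosome's median in at least 1 sample. The stretches were 0 to 3, 7.5 to 9.5, 10 to 10.5, 21 to 24, 33 to 34, 39.5 to 46.5 and 152.5 to 153 Mb. The longest, from 39.5 to 46.5 Mb, removes 14 bins. Apart from the 2 chromosome ends, all of the dropped stretches lie in the first 46.5 Mb. Kept bins at 32.5 Mb, with relative coverage between 0.133 and 0.147, and at 113 Mb, with 0.150 to 0.161, were the next lowest.

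The kept bins split evenly, 136 in A and 136 in B, by the sign of eigenvector 1, the leading pattern of the correlation matrix of the mean map of the 4 samples. This pattern accounted for 37.1% of the variance, against 12.4% for the next. Runs of at least 2 kept bins formed 35 blocks, 14 in A and 21 in B, that hold 259 of the kept bins, while 13 single-bin runs belong to no block. A blocks had a median span of 4 Mb and B blocks of 2.5 Mb. Up to the middle of the chromosome, at 76.5 Mb, 43.3% of kept bins were A, and beyond it 55.3% were. The largest A block, from 136.5 to 152.5 Mb, takes up the distal end with 32 bins, and the largest B block runs from 63.5 to 71 Mb with 15 bins. Because the blocks were drawn from these same maps, their plaid contrast is a definition, and the differences between the groups are what was measured.

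Contacts with another chromosome give a separate view of each block. The readout was the log2 ratio of contacts with B1-rich over L1-rich bins of chromosome 1. Over the whole of chromosome 7 it fixed which sign was called A, but it did not place the blocks. All 14 A blocks had positive ratios in each of the 4 samples, and 17 of 21 B blocks had negative ratios in each. The highest A value was in the block at 132.5 to 136 Mb, at 0.90 and 0.99 in SCR AMO and 0.88 and 0.85 in L1 AMO. The lowest mean B value was in the block at 24 to 25 Mb, with -0.40 and -0.57 in SCR AMO and -0.44 and -0.42 in L1 AMO. The 4 exceptions among B blocks were at 90 to 91, 121.5 to 123, 124 to 125 and 130.5 to 132.5 Mb, all of 4 bins or fewer. These, the block at 24 to 25 Mb and the bins given below for a change of sign were chosen after their values were seen. At 124 to 125 Mb the ratio was positive in every sample, 0.23 and 0.28 in SCR AMO and 0.06 and 0.04 in L1 AMO. At 90 to 91 Mb it was 0.16 and 0.33 in SCR AMO and -0.06 and -0.12 in L1 AMO, so the sign itself differed between the groups there.

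Eigenvector 1 computed in each sample had a Pearson's r of 0.986 within SCR AMO, of 0.991 within L1 AMO and of 0.965 to 0.984 across the groups. These correlations run across 272 bins, which are not independent. In 16 bins, 5.88% of those kept, the sign was A in both SCR AMO samples and B in both L1 AMO samples, and in 0 bins was it the reverse. On all 19 autosomes this held for 5.17% and 0.0418% of the kept bins. At 126 to 126.5 Mb, the bin with the highest SCR AMO values among them, eigenvector 1 scaled to a mean square of 1 was 0.71 and 0.65 in SCR AMO and -0.05 and -0.07 in L1 AMO. The 16 bins are scattered, and 14 of them lie in the distal part of the chromosome, beyond 76.5 Mb. Whole blocks kept their sign in all 4 samples with 2 exceptions. The mean over the block at 124 to 125 Mb was 0.11 and 0.06 in SCR AMO and -0.46 and -0.53 in L1 AMO. The mean over the block at 90 to 91 Mb was 0.12 and -0.07 in SCR AMO and -0.33 and -0.30 in L1 AMO.

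Long-distance contacts made up less of the balanced contact frequency within chromosome 7 in L1 AMO, and contacts at middle distances made up more. Contacts with other chromosomes are not part of this total. Pairs more than 10 Mb apart made up 19.7% and 18.2% of the balanced contact frequency in SCR AMO (mean 18.9% ± 1.10, SD, n = 2) and 16.99% and 16.4% in L1 AMO (16.7% ± 0.448, SD, n = 2). The groups did not overlap (exact permutation p = 0.3333). No smaller p can be had from 2 against 2 samples. The difference of -2.26 points was -1.48 points without SCR AMO replicate 1 and -3.04 points without SCR AMO replicate 2. Pairs above 2 and up to 10 Mb apart made up 10.1% and 9.33% in SCR AMO and 11.5% and 11.3% in L1 AMO, again with no overlap (exact permutation p = 0.3333). The difference of 1.68 points was 3.39 points without contacts inside 1 bin. Pairs up to 2 Mb apart, contacts inside a bin included, overlapped between the groups, at 70.2% and 72.5% in SCR AMO and 71.5% and 72.3% in L1 AMO. No chromosome value given below can reach 0.05 by this two-sided test. According to the methods of the study, the AMOs were transfected in 2 experiments independent of each other.

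By finer distance bands the difference changed sign more than once. Between 4 and 6 Mb the share of contact frequency was 2.31% and 2.12% in SCR AMO and 2.76% and 2.75% in L1 AMO, a log2 ratio of 0.32 whose 4 sample-to-sample ratios ran from 0.25 to 0.38. Between neighbouring bins, at 0.5 Mb, it was 20.3% and 19.7% in SCR AMO and 18.6% and 18.1% in L1 AMO. The largest relative difference was at the greatest distances. Beyond 80 Mb the share was 1.71% and 1.53% in SCR AMO and 1.10% and 0.938% in L1 AMO, with a log2 ratio of -0.67 (range -0.87 to -0.48). The bands from 10 to 20 and from 20 to 40 Mb were also lower in L1 AMO, at log2 ratios of -0.11 and -0.08, and that from 40 to 80 Mb at -0.28. Contacts inside single bins overlapped, at 37.3% and 41.0% in SCR AMO and 40.2% and 42.1% in L1 AMO.

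The plaid contrast of the chromosome was weaker in L1 AMO. Compartment strength, the mean of A-A and B-B contacts over that of A-B contacts among the 20% of bins at each end of eigenvector 1, was 3.49 and 3.69 in SCR AMO (3.59 ± 0.140, SD, n = 2) and 2.73 and 2.59 in L1 AMO (2.66 ± 0.101, SD, n = 2). The difference of -0.928 was -1.51 with corners of 10% and -0.508 with corners of 30%. The groups lay farther apart than their replicates (exact permutation p = 0.3333). Contacts are given here as observed over expected (O/E), where the expected value is the mean of chromosome 7 bin pairs at the same distance. A-A contacts were 1.86 and 1.88 in SCR AMO and 1.71 and 1.65 in L1 AMO, a difference of -0.192 that was -0.336 without balancing and -0.301 with balancing of chromosome 7 alone. B-B contacts were 1.29 and 1.31 in SCR AMO and 1.25 and 1.23 in L1 AMO. A-B contacts differed the most in proportion, at 0.451 and 0.433 in SCR AMO and 0.540 and 0.556 in L1 AMO. The difference in B-B contacts, -0.0655, rests on the way of balancing. It was 0.0397 without balancing (exact permutation p = 0.667), and -0.00652 with balancing of chromosome 7 alone, where the values of the groups overlap (exact permutation p = 1).

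By its difference in compartment strength, chromosome 7 lay in the middle of the autosomes. Its difference, -0.928, ranked 9 of 19 from the lowest, and 19 of 19 autosomes had lower strength in both L1 AMO samples. Taken relative to the median of the other 18 autosomes, its strength was higher by 0.295 and 0.439 in SCR AMO and by 0.320 and 0.324 in L1 AMO, which overlap (exact permutation p = 1). For the share above 10 Mb, the excess of chromosome 7 over that median was 1.24 and 1.10 points in SCR AMO and 0.886 and 0.860 points in L1 AMO. The groups did not overlap (exact permutation p = 0.3333). The difference in this excess, -0.297 points, was -0.446 points with the mean of the other autosomes in place of the median. In the share itself, the difference of chromosome 7, -2.26 points, ranked 5 of 19. For segregation, which is defined below, the excess was 0.0882 and 0.0800 in SCR AMO and 0.0516 and 0.0550 in L1 AMO, again with no overlap (exact permutation p = 0.3333). This difference of -0.0308 was -0.0119 without SCR AMO replicate 1. For the share from 2 to 10 Mb it was -0.158 and -0.140 points in SCR AMO and -0.331 and -0.399 points in L1 AMO (exact permutation p = 0.3333).

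The lower contrast was not uniform over distance or kind. Between A bins, the mean O/E at 20 to 40 Mb was 1.43 and 1.43 in SCR AMO and 1.25 and 1.21 in L1 AMO, the band where A-A contacts differed the most (-14.2%). At 0.5 to 2 Mb the A-A value was 0.849 and 0.854 in SCR AMO and 0.902 and 0.915 in L1 AMO. A bins thus contacted nearby A bins relatively more and distant A bins relatively less in L1 AMO. Between B bins the order was the reverse. Because the expected value is the mean over all kinds of pairs at a distance, the kinds are not independent of each other within a band. B-B contacts at 2 to 4 Mb were 1.40 and 1.40 in SCR AMO and 1.30 and 1.27 in L1 AMO, while at 20 to 40 Mb they were 1.17 and 1.18 in SCR AMO and 1.19 and 1.21 in L1 AMO. From 40 to 80 Mb B-B contacts overlapped between the groups. A-B contacts were higher in both L1 AMO samples in every band up to 80 Mb, with the largest relative difference at 2 to 4 Mb (10.3%), and overlapped beyond 80 Mb.

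For each block, segregation was measured as the mean O/E of its contacts with other blocks of its kind divided by that with blocks of the other kind, for bins more than 2 Mb apart. Over the chromosome this ratio was 1.79 and 1.80 in SCR AMO (1.79 ± 0.00490, SD, n = 2) and 1.62 and 1.58 in L1 AMO (1.60 ± 0.0233, SD, n = 2), and the groups did not overlap (exact permutation p = 0.3333). The difference of -0.191 was -0.323 without balancing. In 24 of 35 blocks both L1 AMO values of segregation were below both SCR AMO values, close to the 67.8% of 547 autosomal blocks where this held. They were above in 5 blocks, against 20.3% of autosomal blocks, and the groups overlapped in 6. Among A blocks, 13 of 14 were lower and 1 was higher, where 96.8% and 0.794% of autosomal A blocks were. Among B blocks, 11 of 21 were lower and 4 higher, where 43.1% and 36.9% of autosomal B blocks were. Of the 19 blocks of at least 6 kept bins (3 Mb), 18 had lower segregation in both L1 AMO samples, 0 had higher and 1 overlapped, where 82.7% of autosomal blocks of that size were lower and 10.1% higher. Of the 16 smaller blocks, 6 were lower, 5 were higher and 5 overlapped, where 52.4% of such autosomal blocks were lower and 30.9% higher. Differences between chromosome 7 and the autosomes in these shares were not tested.

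Both terms of the ratio differed. Contacts of A blocks with other A blocks were lower in L1 AMO in 13 of 14 blocks and higher in 1, where 95.2% and 1.19% of autosomal A blocks were. Their contacts with B blocks were higher in 9 and lower in 4, against 69.4% and 13.9% of autosomal A blocks. Contacts of B blocks with other B blocks were lower in 7 of 21 and higher in 8, where 19.3% and 59% of autosomal B blocks were. Their contacts with A blocks were higher in 14 and lower in 2, where 61.7% and 19.3% of autosomal B blocks were. Whether the B blocks of chromosome 7 differ from other B blocks in this was not tested.

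Among the blocks with lower segregation, the A block at 25 to 32 Mb differed the most. Its segregation was 2.75 and 2.83 in SCR AMO and 2.28 and 2.12 in L1 AMO, a difference of -21.1%. In the units of the ratio this is -0.587, and it was -1.03 without balancing. Its O/E with other A blocks was 1.48 and 1.48 in SCR AMO and 1.39 and 1.32 in L1 AMO, and with B blocks 0.541 and 0.525 in SCR AMO and 0.608 and 0.622 in L1 AMO. The highest segregation in every sample belonged to the A block at 132.5 to 136 Mb, at 2.81 and 2.97 in SCR AMO and 2.49 and 2.37 in L1 AMO. This is also the block with the highest ratio of contacts with B1-rich over L1-rich bins of chromosome 1. The A block at 50 to 54.5 Mb had 2.65 and 2.71 in SCR AMO and 2.29 and 2.22 in L1 AMO. The A block at 86 to 90 Mb had 2.43 and 2.44 in SCR AMO and 2.07 and 1.99 in L1 AMO. In both, the groups were separated by more than the spread between replicates.

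The terms behind the lower ratio varied among A blocks. At 125 to 130.5 Mb the ratio was 1.65 and 1.67 in SCR AMO and 1.33 and 1.33 in L1 AMO. Most of this difference was in contacts with B blocks, at 0.713 and 0.712 in SCR AMO and 0.835 and 0.830 in L1 AMO (16.9%). At 104.5 to 109.5 Mb only the contacts with A blocks pointed to a lower ratio. Its contacts with B blocks were 0.658 and 0.658 in SCR AMO and 0.641 and 0.654 in L1 AMO, and its contacts with A blocks were 1.56 and 1.58 in SCR AMO and 1.37 and 1.36 in L1 AMO. The A block at 35 to 39 Mb was the only 1 of the 14 with higher same-kind contacts in both L1 AMO samples, at 1.59 and 1.58 in SCR AMO and 1.61 and 1.60 in L1 AMO, a difference of 1.12%. With B blocks it had 0.977 and 0.956 in SCR AMO and 1.09 and 1.09 in L1 AMO. Its segregation was 1.63 and 1.65 in SCR AMO and 1.47 and 1.46 in L1 AMO. The distal A block at 136.5 to 152.5 Mb had a segregation of 1.76 and 1.72 in SCR AMO and 1.56 and 1.48 in L1 AMO. The remaining large A blocks, at 72 to 75.5 and 116.5 to 121.5 Mb, differed by -2.73% and -12.2%. The smallest of these differences, at 72 to 75.5 Mb, came with slightly lower contacts to both kinds, and in the ratio its -0.0419 ran from -0.107 to -0.0175 over the alternatives.

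All 9 B blocks of at least 6 kept bins had higher contacts with A blocks in both L1 AMO samples, where 82.1% of autosomal B blocks of that size had higher and 10.6% lower values. Their contacts with other B blocks differed by -7.23% to 6.75%. In the B block at 91.5 to 97 Mb, segregation was 1.92 and 2.00 in SCR AMO and 1.62 and 1.59 in L1 AMO, the most negative difference among B blocks (-18.01%). In the B block at 57 to 63 Mb it was 1.90 and 1.93 in SCR AMO and 1.61 and 1.56 in L1 AMO. There the contacts with other B blocks overlapped between the groups, at 1.17 and 1.17 in SCR AMO and 1.17 and 1.15 in L1 AMO, while contacts with A blocks were 0.615 and 0.607 in SCR AMO and 0.729 and 0.738 in L1 AMO (20.1%). In the B block at 83 to 86 Mb, contacts with A blocks were 13.6% higher and contacts with B blocks 1.56% higher in L1 AMO, with no overlap of the groups in either. The B blocks at 9.5 to 13.5, 63.5 to 71 and 97.5 to 104.5 Mb had segregation that differed by -12.0%, -12.5% and -12.8%, and the B blocks at 83 to 86 and 109.5 to 116.5 Mb by -10.6% and -5.82%. The sizes of some depend on balancing. Without it the difference in the ratio went from -0.230 to -0.0808 at 63.5 to 71 Mb and from -0.185 to -0.0338 at 83 to 86 Mb, and with balancing of chromosome 7 alone from -0.0931 to -0.0314 at 109.5 to 116.5 Mb. The least difference among large B blocks with separated groups was at 46.5 to 50 Mb, beside the longest dropped stretch, with 1.36 and 1.34 in SCR AMO and 1.30 and 1.33 in L1 AMO, and it changed sign to 0.00180 with balancing of chromosome 7 alone. The B block at 75.5 to 80.5 Mb overlapped, at 1.33 and 1.27 in SCR AMO and 1.33 and 1.31 in L1 AMO.

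The 5 blocks with higher segregation in both L1 AMO samples were all short, and they are named after their values were seen. In the B block at 124 to 125 Mb the ratio was 0.872 and 0.899 in SCR AMO and 1.10 and 1.14 in L1 AMO, and in the B block at 130.5 to 132.5 Mb it was 1.06 and 1.02 in SCR AMO and 1.28 and 1.23 in L1 AMO. Contacts of these blocks with other B blocks were higher in L1 AMO (22.9% and 17.96%), and their contacts with A blocks overlapped between the groups. Both lie inside the mostly A distal part, and in SCR AMO the first of them contacted A blocks more than B blocks. That block, at 124 to 125 Mb, is B by the mean map of the 4 samples. Its mean eigenvector 1 was positive in SCR AMO, at 0.11 and 0.06. Its higher ratio therefore follows from the label, since as an A block the terms would swap and the ratio would be lower in L1 AMO. The B blocks at 32 to 35 and 81 to 82.5 Mb had ratios 13.6% and 3.41% higher in L1 AMO. The A block at 16.5 to 18 Mb was at 1.55 and 1.56 in SCR AMO and 1.64 and 1.72 in L1 AMO. The block at 32 to 35 Mb spans the dropped stretch at 33 to 34 Mb and a bin of low coverage, and its part in that value was not tested.

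Contacts inside blocks differed in another way than contacts between them. Inside A blocks the mean O/E was higher in both L1 AMO samples in 11 of 14 blocks (71.4% of autosomal A blocks) and lower in 1 (13.1%). Inside B blocks it was lower in 16 of 21 (75.6% of autosomal B blocks) and higher in 1 (6.78%), the short block at 6.5 to 7.5 Mb, named after its values were seen. These shares are near those of all autosomes. Since A and B blocks share the same expected values, their opposite directions are not independent of each other. Inside the A block at 132.5 to 136 Mb, O/E was 0.608 and 0.617 in SCR AMO and 0.719 and 0.747 in L1 AMO, a difference of 19.7%. Inside the B block at 57 to 63 Mb it was 1.43 and 1.44 in SCR AMO and 1.30 and 1.29 in L1 AMO. The 1 A block lower inside was at 35 to 39 Mb, with 1.15 and 1.18 in SCR AMO and 1.08 and 1.11 in L1 AMO. The distal A block was at 1.03 and 1.04 in SCR AMO and 1.08 and 1.11 in L1 AMO. The B block at 32 to 35 Mb stood far above the rest inside, at 4.47 and 4.39 in SCR AMO and 3.99 and 3.91 in L1 AMO, with the dropped stretch and low coverage given above.

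Counts summed over pairs of blocks were compared by the quasi-likelihood test of edgeR, with Benjamini-Hochberg adjustment over 8947 block pairs of the autosomes and chromosome X. On chromosome 7, 589 of 595 pairs had a mean of at least 10 counts and 6 were too thin. At an adjusted p under 0.05, 354 pairs were called, against 51.4% of all pairs tested. Of these 135 rose and 219 fell in L1 AMO, against 25.8% and 25.6% of all pairs. Distance separated the directions. Of 72 pairs with centres up to 10 Mb apart 59 rose and 1 fell, and of 517 farther pairs 76 rose and 218 fell. On the other 18 autosomes 80.3% of the nearer pairs rose and 2.14% fell, and 18.8% of the farther pairs rose and 27.9% fell. Among the farther A-A pairs, 72 of 84 fell, with a median log2 change of -0.52. On the others 64.3% of such pairs fell, with a median of -0.33. None of these differences between chromosome 7 and the others was tested. The counts vary with scaling, tool and samples. With library totals in place of TMM normalization, 66 pairs rose and 278 fell (54.5% of all pairs were called), which takes the share of rises among called pairs of chromosome 7 from 38.1% to 19.2%. The median log2 change went from -0.10 to -0.23 over the pairs of chromosome 7, and from -0.02 to -0.15 over all 8947 pairs. DESeq2 called 94 rises and 115 falls (33.6% of all pairs), and without SCR AMO replicate 1 there were 63 and 114 (28.8% of all pairs). In that fit SCR AMO is a single library and the spread between replicates comes from the 2 L1 AMO samples alone, here and wherever SCR AMO replicate 1 is left out below, so a lost call may come from the smaller number of samples as much as from that library.

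To set the change with distance aside, the same counts were fitted relative to the count expected from each sample's decay with distance and its balancing factors. In this fit, 199 pairs of chromosome 7 were called, against 34.3% of all pairs. Of these 115 rose and 84 fell, against 18.3% and 16.1% of all pairs. Among A-A pairs falls outnumbered rises, with 36 of 91 falling and 2 rising, and a median log2 change of -0.12. Among A-B pairs rises outnumbered falls, with 80 of 291 rising and 30 falling. Of 207 B-B pairs 33 rose and 18 fell. On the other autosomes, 48.5% of A-A pairs fell and 1.64% rose, 24.7% of A-B pairs rose and 7.56% fell, and 20.9% of B-B pairs rose and 9.84% fell, and the differences from chromosome 7 were not tested. DESeq2 with the same expected counts called 54 rises and 32 falls, where it called 15.4% of all pairs, and without SCR AMO replicate 1 there were 63 rises and 42 falls, where 16.6% of all pairs were called. Of 23 named pairs past the threshold, 12 stayed past it in every alternative that could be computed for them. Among these, DESeq2 gave no adjusted p for 3 to 5 with 72 to 75.5 Mb and 57 to 63 with 130.5 to 132.5 Mb.

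A-A pairs of blocks with at least 4 bins were ranked by their mean O/E over the 4 samples. The 3 highest beyond 10 Mb were at least 70 Mb apart between centres. In SCR AMO alone, the pair 3 to 5 with 50 to 54.5 Mb had a mean of 2.54, above all but the highest of them. The blocks at 50 to 54.5 and 132.5 to 136 Mb, 82 Mb apart, had an O/E of 2.63 and 2.49 in SCR AMO and 2.41 and 2.29 in L1 AMO. The blocks at 25 to 32 and 132.5 to 136 Mb had 2.46 and 2.33 in SCR AMO and 2.29 and 2.18 in L1 AMO, and those at 35 to 39 and 104.5 to 109.5 Mb had 2.27 and 2.32 in SCR AMO and 2.18 and 2.18 in L1 AMO. At matched distance the first pair fell by 0.15 on the log2 scale (edgeR adjusted p = 0.0111), and that call was lost with DESeq2 (adjusted p = 0.230) and without SCR AMO replicate 1 (adjusted p = 0.537). The other pairs did not pass the edgeR threshold at matched distance, with log2 differences of -0.11 and -0.08 (adjusted p = 0.0629 and 0.191).

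Among pairs of blocks with at least 4 bins, the 3 largest A-A falls all involved the A block at 3 to 5 Mb, the first kept bins after the dropped centromeric end. Its O/E with the block at 50 to 54.5 Mb was 2.54 and 2.54 in SCR AMO and 1.80 and 1.64 in L1 AMO, from 2827 and 525 counts in SCR AMO and 843 and 546 in L1 AMO. This pair fell by 0.55 on the log2 scale at matched distance (edgeR adjusted p = 6.35e-19). With the block at 72 to 75.5 Mb it was 1.45 and 1.40 in SCR AMO and 1.00 and 0.924 in L1 AMO (log2 change -0.57, edgeR adjusted p = 1.70e-07). The pair with the block at 86 to 90 Mb fell by 0.43 on the log2 scale (edgeR adjusted p = 8.03e-06). All 3 calls were kept in each alternative that gave a value, but DESeq2 gave no adjusted p for the pair with the block at 72 to 75.5 Mb. Inside this block of 4 bins, by contrast, O/E was 1.11 and 1.08 in SCR AMO and 1.30 and 1.39 in L1 AMO. In the edgeR fit at matched distance 2 A-A pairs rose, 35 to 39 with 136.5 to 152.5 Mb by 0.12 and 72 to 75.5 with 132.5 to 136 Mb by 0.16 on the log2 scale (edgeR adjusted p = 0.0150 and 0.0382). Neither call was kept with DESeq2 (adjusted p = 0.204 and 0.375) or without SCR AMO replicate 1 (adjusted p = 0.403 and 0.449).

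B-B pairs of blocks with at least 4 bins and centres more than 10 Mb apart were ranked by the same mean. The 3 highest all included the block at 46.5 to 50 Mb. In SCR AMO alone, the pair 14 to 16.5 with 54.5 to 56.5 Mb had a higher mean, 1.58, than each of them. The O/E of the block at 46.5 to 50 Mb with that at 9.5 to 13.5 Mb was 1.55 and 1.56 in SCR AMO and 1.81 and 1.85 in L1 AMO. With the block at 32 to 35 Mb it was 1.57 and 1.42 in SCR AMO and 1.85 and 1.80 in L1 AMO, and with that at 14 to 16.5 Mb 1.51 and 1.52 in SCR AMO and 1.69 and 1.70 in L1 AMO. Each of these rose by 0.21 on the log2 scale at matched distance (edgeR adjusted p = 0.000396, 0.000485 and 0.00132). None of the calls was kept with DESeq2 (adjusted p = 0.0674, 0.0638 and 0.106). Over the alternatives, the log2 changes ran from 0.21 to 0.22, from 0.13 to 0.29 and from 0.17 to 0.25, in that order. Without SCR AMO replicate 1 the adjusted p was 0.118, 0.0166 and 0.166.

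Within the same limit of at least 4 bins, the largest B-B rises were those of the short block at 130.5 to 132.5 Mb with 3 large blocks. With the block at 75.5 to 80.5 Mb its O/E was 0.829 and 0.819 in SCR AMO and 1.22 and 1.16 in L1 AMO, a log2 change of 0.52 (edgeR adjusted p = 5.65e-11). With that at 63.5 to 71 Mb it was 0.803 and 0.800 in SCR AMO and 1.09 and 1.10 in L1 AMO (log2 change 0.44, edgeR adjusted p = 8.91e-08). With that at 57 to 63 Mb it was 0.925 and 0.744 in SCR AMO and 1.18 and 1.19 in L1 AMO (log2 change 0.42, edgeR adjusted p = 3.16e-05). This block, whose contacts with B blocks were below the distance average in SCR AMO, was thus above it in L1 AMO. The largest B-B falls within that limit included the pair 46.5 to 50 with 91.5 to 97 Mb, at 1.18 and 1.17 in SCR AMO and 0.965 and 0.994 in L1 AMO (log2 change -0.27, edgeR adjusted p = 3.98e-06). The pair 91.5 to 97 with 109.5 to 116.5 Mb, with 8193 and 1574 counts in SCR AMO and 3370 and 2908 in L1 AMO, fell by 0.24 on the log2 scale (edgeR adjusted p = 4.09e-12). The pair 14 to 16.5 with 57 to 63 Mb fell by 0.23 on the log2 scale (edgeR adjusted p = 0.000652), a call lost with DESeq2 (adjusted p = 0.0642). Among the named pairs, the block at 46.5 to 50 Mb thus took part in rises with B blocks before it and in a fall with a B block beyond it.

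Of the A-B pairs beyond 10 Mb, the highest O/E was found across the dropped stretch from 39.5 to 46.5 Mb. The A block at 35 to 39 Mb and the B block at 46.5 to 50 Mb, on either side of it, had 1.99 and 1.91 in SCR AMO and 2.41 and 2.40 in L1 AMO, higher than any other named A-B pair, and rose by 0.32 on the log2 scale (edgeR adjusted p = 4.49e-19). By the mean of the 4 samples, the next among blocks with at least 4 bins was 35 to 39 with 130.5 to 132.5 Mb. That pair overlapped between the groups, at 1.29 and 1.45 in SCR AMO and 1.14 and 1.52 in L1 AMO. The pair 54.5 to 56.5 with 125 to 130.5 Mb was at 0.940 and 1.16 in SCR AMO and 1.10 and 1.22 in L1 AMO, which also overlap (log2 change 0.26, edgeR adjusted p = 0.0103). Its size is not stable, since the log2 difference was 0.05 without SCR AMO replicate 1 (edgeR adjusted p = 0.897), and the call was lost with DESeq2 as well (adjusted p = 0.361).

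Among blocks of that size, the largest A-B rises involved the B block at 9.5 to 13.5 Mb and the A blocks at 25 to 32 and 35 to 39 Mb. The first bin of this B block, at 9.5 Mb, had a low relative coverage of 0.182 to 0.204. The block also spans the dropped bin at 10 to 10.5 Mb, and the part of both in its pair values was not tested. The pair 9.5 to 13.5 with 35 to 39 Mb had an O/E of 0.711 and 0.701 in SCR AMO and 1.03 and 1.05 in L1 AMO, a log2 change of 0.57 (edgeR adjusted p = 1.35e-16). The pair 9.5 to 13.5 with 25 to 32 Mb was at 0.554 and 0.520 in SCR AMO and 0.800 and 0.859 in L1 AMO (log2 change 0.51, edgeR adjusted p = 4.95e-21). The pair 25 to 32 with 57 to 63 Mb was at 0.415 and 0.407 in SCR AMO and 0.585 and 0.598 in L1 AMO (log2 change 0.50, edgeR adjusted p = 3.49e-21). All 3 rises were kept in each alternative that gave a value. The largest A-B falls among them were smaller and rest on fewer counts. The pair 25 to 32 with 130.5 to 132.5 Mb, with 496 and 96 counts in SCR AMO and 131 and 78 in L1 AMO, fell by 0.39 on the log2 scale (edgeR adjusted p = 0.00426, but 0.0563 without SCR AMO replicate 1). The pairs 9.5 to 13.5 with 72 to 75.5 Mb and 3 to 5 with 46.5 to 50 Mb fell by 0.35 and 0.29 on the log2 scale (edgeR adjusted p = 0.000817 and 0.00333). With DESeq2 the call of the second pair was lost (adjusted p = 0.170). The first pair, and 25 to 32 with 130.5 to 132.5 Mb, got no adjusted p from DESeq2. Over the alternatives, the log2 change of the first pair ran from -0.44 to -0.22 and that of the second from -0.40 to -0.19. Without SCR AMO replicate 1 their adjusted p was 0.412 and 0.309.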

How the data were processed

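Hi-C maps of 4 mESC samples were used. The authors processed sisHi-C read pairs with HiC-Pro (2.7.1b in the submitters' processing notes) against mm9 and deposited raw counts of contacts between 500-kb bins. The study tabulates pairs left after removal of duplicates, and the totals of the L1 AMO samples are close to these. The state of the SCR AMO matrices in this respect is not known. The 2 matrices of each L1 AMO sample were added, bins covered below 0.1 of their chromosome's median by at least 1 sample were dropped, and the 5093 bins kept on the autosomes and X were balanced by iterative correction (22 iterations). Within both L1 AMO samples, the 2 matrices agree within sampling noise over chromosome 7 block pairs (chi-square over degrees of freedom 0.957 and 0.926), against 1.32 within SCR AMO and 3.04 within L1 AMO.

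A dropped stretch of at most 2 bins did not end a block. A was the sign with more contacts with chromosome 1 bins that are B1-rich in the repeat table of the study. Two-sided exact permutation tests compared the chromosome values. Block pair counts went into edgeR 4.0.16 (TMM, or an offset of the log expected count; mean of at least 10 counts; Benjamini-Hochberg) and, as an alternative, DESeq2 1.42.0, in R 4.3.3. The maps were handled in Python 3.11.15 (pandas 2.3.3, scipy 1.17.1, numpy 2.4.6).

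Blocks named by a fixed rule have at least 6 kept bins. Smaller blocks are given only as exceptions, as parts of named pairs or for their highest or lowest values. Blocks that hold a listed gene family could not be added, since no mm9 gene positions were at hand. Pairs named have at least 4 bins in both blocks. For each kind they are the 3 of highest O/E beyond 10 Mb, as the mean of the 4 samples. They also include up to 3 of the largest rises and falls at matched distance. Those have an adjusted p under 0.05 and groups that do not overlap. Chromosome 7, its blocks, the gene lists and the tests were chosen with earlier results of these data known. The steps were tested on simulated maps and counts. Alternatives covered balancing, coverage, matrices, depth, samples, replicate numbers, distances, corners, eigenvectors, blocks, filters and tools. The H3K9me3 ChIP samples were not analysed here.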

Additional observations from a re-analysis of the deposited data

How the results depend on the processing

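With 2 samples a group, no exact permutation test of a chromosome value can reach 0.05, so only directions can be compared. Of 139 alternative values of the chromosome 7 measures that could change sign, 136 kept it. Their sizes varied more. The difference in strength, -0.928, was -1.51 with corners of 10% and -0.508 with corners of 30%. Without balancing, the difference in segregation went from -0.191 to -0.323 and that in A-A contacts from -0.192 to -0.336. The difference in the share from 2 to 10 Mb went from 1.68 to 3.39 points without contacts inside 1 bin. The difference in B-B contacts was 0.0397 without balancing and -0.00652 with balancing of chromosome 7 alone, and that in the share up to 2 Mb was -0.579 without contacts inside 1 bin, against 0.576 with them. The difference in strength relative to the other autosomes was 0.0260 with their mean in place of the median. For the block from 46.5 to 50 Mb, the difference in segregation was 0.00180 with balancing of chromosome 7 alone. The cause was not tested. For the 18 named blocks whose groups do not overlap, 194 of 195 alternative values kept their sign, and for the overlapping block 10 of 12. Their sizes held less well. Of all 207 values, 63 kept their sign but moved by at least the spread between replicates. For the block from 63.5 to 71 Mb the difference of -0.230 ran from -0.251 to -0.0808, for that from 83 to 86 Mb the difference of -0.185 ran from -0.206 to -0.0338, and for that from 25 to 32 Mb the difference of -0.587 ran from -1.03 to -0.512. For the blocks from 72 to 75.5 and from 109.5 to 116.5 Mb, differences of -0.0419 and -0.0931 ran from -0.107 to -0.0175 and from -0.116 to -0.0314.

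Leaving out 1 sample at a time gave differences from -0.607 to 1.76 points in the share up to 2 Mb, the negative value without SCR AMO replicate 1, and from -0.120 to 0.0762 in strength relative to the other autosomes, the positive value without SCR AMO replicate 2. Chromosome 7 pairs called in the fit to counts ran from 63 to 129 rises and 114 to 218 falls, and at matched distance from 63 to 102 rises and 42 to 76 falls, lowest without SCR AMO replicate 1, where SCR AMO is a single library. DESeq2 called 115 falls in the counts, and 54 rises and 32 falls at matched distance. Blocks of at least 4 bins leave 276 pairs, of which 74 rose and 103 fell in the counts. In that fit 57.4% of all pairs were called. Library totals gave 66 rises. At matched distance, the log2 change of the pair 57 to 63 with 130.5 to 132.5 Mb ran from 0.36 to 0.71 over the alternatives. That of 72 to 75.5 with 132.5 to 136 Mb ran from 0.08 to 0.21. For the pair 50 to 54.5 with 132.5 to 136 Mb it ran from -0.20 to -0.09. For the pair 25 to 32 with 132.5 to 136 Mb it ran from -0.17 to -0.07.

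The methods of the study name 2 independent experiments, but neither they nor the labels say that samples with the same replicate number belong together. Deviations of same-numbered samples had an r of 0.119 over chromosome 7 block pairs and of 0.0252 over all 8947 block pairs. Blocking on the replicate number, 142 pairs rose and 225 fell in the counts, where 55.3% of all pairs were called. At matched distance 117 rose and 83 fell, where 33.1% of all pairs were called.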
